A study of Mus with 3 samples.

Results

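Immediate early genes are the first genes a neuron transcribes when it fires, and 10 of them were followed across 3 groups of mice: Fos, Fosb, Junb, Egr1, Egr2, Egr4, Nr4a1, Npas4, Arc and Dusp1. They were picked by gene symbol, as the probes that the array files name for these genes, and each had 1 probe, which gave 10 probes of 39429 gene probes and 10 of 23756 named genes. The choice of the 10 genes was made with earlier results of these data known. The samples were hippocampus from male Slc:ddY mice, an outbred stock, aged 6 weeks. The normal controls (NCO) and the peptide-injected controls (ACO) were dosed orally with distilled water over 15 days. The oil group (ASO) was dosed over the same time with shochu oil, oil components of a sweet potato spirit, at 2000 mg/kg/day. On day 8 each NCO mouse was given 5 µL of distilled water, by a route that the labels do not name. Each ACO or ASO mouse received 10 nmol of Aβ25-35, a piece of amyloid β that is toxic to neurons, in 5 µL injected into the cerebral ventricles. One line of the labels' protocol calls the oil group by a name that no sample carries, and the series' design text describes ASO as injected. On day 16 spontaneous alternation in a Y-maze was measured in all groups, after which the hippocampus was taken following euthanasia with CO2 gas. The time from maze to tissue collection is not given in the sources used here.

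Neuronal firing lets calcium into the cell, and kinases then switch on transcription factors already bound to these genes, among them CREB and SRF, so their RNA appears within minutes and is short-lived. Most of the products are themselves transcription factors: Fos, Fosb and Junb proteins pair to form AP-1, Egr1, Egr2 and Egr4 are zinc finger proteins, Nr4a1 is an orphan nuclear receptor and Npas4 is a neuron-restricted factor. Arc acts directly at the synapse, and Dusp1 removes the phosphates that activate MAP kinases. In the hippocampus these genes are widely used as a readout of recent activity and of learning.

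RNA of 2 mice made 1 set, 5 sets were pooled for each group of 10 mice, and each pool was run on 1 array, so there were 3 arrays and no replicates. No test between groups was possible, and the number of arrays limits the precision of every value. The only error measured was that between spots: 250 probes printed at 10 spots had a median SD of the log2 difference of 0.08 for ACO minus NCO, 0.09 for ASO minus ACO and 0.10 for ASO minus NCO. For each single-spot gene below, the "spot SD" is the median of this SD over the 20 such probes closest in signal. It holds no variation between mice, RNA pools or labelling reactions. On each array 50.9% to 53.7% of gene probes exceeded background clearly (a signal to noise of at least 2.6). Signals are background-corrected spot medians scaled to a common 75th percentile, and differences are in log2 after adding 50. The signal of one gene's probe cannot be set against that of another. Markers of hippocampal excitatory neurons (5 of 5), CA1 (5 of 5), CA3 (4 of 5, without Iyd) and dentate granule cells (9 of 10, without Tdo2) were well above background on at least 1 array, while the striatal receptors Drd2 and Adora2a were not on any.

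On the ASO array, 6 of the 10 genes were at least 1.2-fold lower than on ACO: Fos, Egr1, Egr2, Egr4, Nr4a1 and Arc, by 1.21-fold to 1.42-fold. Because the genes and the 1.2-fold limit were chosen with earlier results of these data known, the counts here are descriptions only. Of all 13583 genes measured on both arrays, 9.26% were at least 1.2-fold lower, or 22.1% with each array scaled to its median, under which 6 of the 10 were again lower. None of the 10 was at least 1.2-fold higher, a size that 10.1% of all genes reached, and in either direction 19.4% did. The difference was below 0 for 8 of 10, as for 53.0% of all genes, and these 8 were lowest on ASO of the 3 arrays, with Fosb and Junb as the exceptions. Between ACO and NCO, 0 of 10 were at least 1.2-fold apart, where 5.48% of 13330 genes were. The widest gap there was that of Npas4 at -0.12, and 6 of 10 were below 0, as were 48.2% of all genes. Against NCO, 4 genes were at least 1.2-fold lower on ASO (Fos, Egr1, Egr2 and Nr4a1), where 8.31% of 13473 genes were (18.2% with scaling to the median, under which 7 of the 10 were lower), 10.3% were higher and 18.7% were apart in either direction. Again 8 of 10 were below 0, as were 52.9% of all genes. None was 2-fold apart in any comparison, a size reached by 0.075% of genes between ACO and NCO, 0.258% between ASO and ACO and 0.275% between ASO and NCO. The ASO array is shared by both comparisons that involve it, and the ACO array by both that involve ACO, so the comparisons are not independent of each other.

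**Figure D1:**
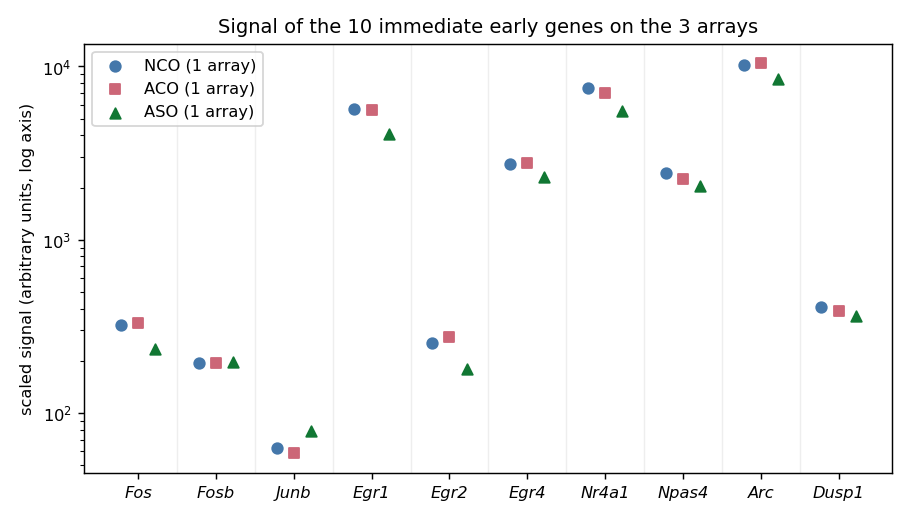
Scaled signal (log axis, arbitrary units) of the 10 immediate early genes, with 1 point for each array: NCO (circles), ACO (squares) and ASO (triangles). The ASO point lies lowest for 8 genes and highest for Fosb and Junb; heights cannot be compared between genes.

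Among the AP-1 genes, only Fos had a probe (A_52_P262219) printed at 10 spots. On NCO the spots ran from 275 to 410 with a median of 316, on ACO from 285 to 409 with a median of 331, and on ASO from 211 to 296 with a median of 233. All ACO spots lay within the range of the NCO spots, whereas 9 of 10 ASO spots lay below every ACO spot and 9 of 10 below every NCO spot. The spots were scattered over the array, from column 33 to 254 of 266 and from row 3 to 143 of 170. Paired by position, ASO minus ACO was -0.42 ± 0.08 (SD over 10 spots of 1 pool), and all 10 spots were lower on ASO, by -0.30 to -0.58. ASO minus NCO was -0.38 ± 0.06 over the same spots, again with 10 of 10 lower. ACO minus NCO was 0.04 ± 0.07, with 6 spots higher and 4 lower. Spots of 1 array share 1 RNA pool, so their agreement speaks for the array reading alone.

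**Figure D2:**
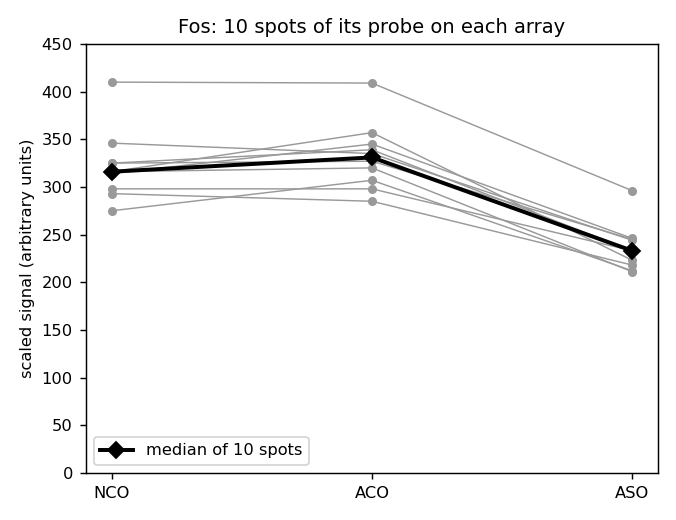
Scaled signal (arbitrary units) of each of the 10 Fos spots on the 3 arrays; a grey line joins the same spot position and the black line the medians of 316, 331 and 233. Every grey line goes down from ACO to ASO.

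Fosb, the close relative of Fos whose stable short form builds up with repeated stimulation, showed no such gap. The NCO array read 195, the ACO array 194 and the ASO array 197 (probe A_55_P2113051). The differences were 0.00 for ACO minus NCO and 0.02 for ASO minus ACO, against a spot SD of 0.10. The sign of both ASO differences flipped with spot means, quantile normalization or scaling to the median, and that against NCO also with no background correction, so Fosb has no order among the arrays. Junb, an AP-1 partner of both, was the dimmest of the 10. Its raw spot medians were 85, 89 and 101 on NCO, ACO and ASO over local backgrounds of 43, 45 and 38. Its scaled signals were 62.9, 58.3 and 78.3. It was highest on ASO, at 0.24 above ACO and 0.18 above NCO with a spot SD of 0.12, and its signal to noise of 2.71 on ACO was just above the minimum of 2.6. The spots around it also read higher on ASO than on NCO, by 0.13, and after correction by them Junb stood at 0.06 against NCO, inside the spot SD, and at 0.17 against ACO. Within AP-1, Fos thus read lower on ASO, Fosb level and Junb higher by less than 1.2-fold.

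The 3 Egr genes, whose zinc finger proteins bind GC-rich sites in the promoters of synaptic genes, all stood lower on ASO. Egr1, the member tied most closely to long-term potentiation and memory, had signals of 5686 (NCO), 5583 (ACO) and 4074 (ASO) (probe A_51_P367866). The NCO and ACO values lay within 0.03 of each other, less than the spot SD of 0.07. On ASO it was 1.37-fold lower than on ACO, a difference of -0.45, and 1.39-fold lower than on NCO, at -0.48. Of the 13473 genes measured on ASO and NCO, 0.802% had a lower difference than Egr1. Egr2, also called Krox20, had signals of 253, 275 and 178 on NCO, ACO and ASO (probe A_55_P2033362). Its ASO minus ACO difference of -0.51 corresponds to 1.42-fold, with a spot SD of 0.10, and 0.56% of 13583 genes lay lower. Egr2 is dim, and adding 200 in place of 50 brought it to -0.33, above Egr1 at -0.44, so the order of these genes is not settled. Against NCO it stood at -0.41. Egr4, which is strongly neuronal, had signals of 2736, 2781 and 2291 (probe A_51_P270426). It was 1.21-fold lower on ASO than on ACO, at -0.27 with a spot SD of 0.08, and 1.19-fold lower than on NCO, at -0.25. Egr4 thus lay at the edge of the 1.2-fold limit, and it was at -0.16 against ACO when spot means replaced spot medians and at -0.23 after correction by the surrounding spots. Against NCO, spot means gave -0.07, inside the spot SD.

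Nr4a1, also known as Nur77, had signals of 7507 (NCO), 6990 (ACO) and 5535 (ASO) (probe A_51_P239654). It was 1.26-fold lower on ASO than on ACO, at -0.33, and 1.35-fold lower than on NCO, at -0.44, with spot SDs of 0.07 and 0.08. The spots around it also read lower on ASO, by -0.11 against ACO and by -0.14 against NCO. After correction by them Nr4a1 stood at -0.23 against ACO and -0.30 against NCO, so it was short of 1.2-fold against ACO. With spot means it was at -0.25 against ACO. Npas4, which shapes inhibitory synapses after activity, had signals of 2431, 2228 and 2052 on NCO, ACO and ASO (probe A_55_P1975215). It stepped down by -0.12 from NCO to ACO and by -0.12 from ACO to ASO, with spot SDs of 0.07 and 0.09. Its ASO minus NCO difference was -0.24. For Npas4, as for Nr4a1 at -0.10 with a spot SD of 0.07, the ACO array was lower than NCO by more than the spot SD, and no Npas4 difference reached 1.2-fold.

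Arc, whose protein drives the removal of AMPA receptors from synapses, had signals of 10154 (NCO), 10404 (ACO) and 8494 (ASO) (probe A_55_P2021810). The NCO and ACO arrays differed by 0.04, less than the spot SD of 0.07. On ASO Arc was 1.22-fold lower than on ACO, at -0.29, and 1.19-fold lower than on NCO, at -0.26, which is just short of the 1.2-fold limit before rounding. Dusp1, the MAP kinase phosphatase also known as MKP-1, had signals of 411, 387 and 363 (probe A_51_P430900). It stood at -0.08 for ACO minus NCO and at -0.08 for ASO minus ACO, within the spot SD of 0.09, and at -0.16 for ASO minus NCO with a spot SD of 0.10. The spots around Dusp1 read higher on ASO than on ACO, by 0.12, and after correction by them it stood at -0.20 against ACO, where Npas4 stood at -0.14. Dusp1 and Npas4 had the same order of arrays, and which of them differed more depends on that correction.

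**Figure D3:**
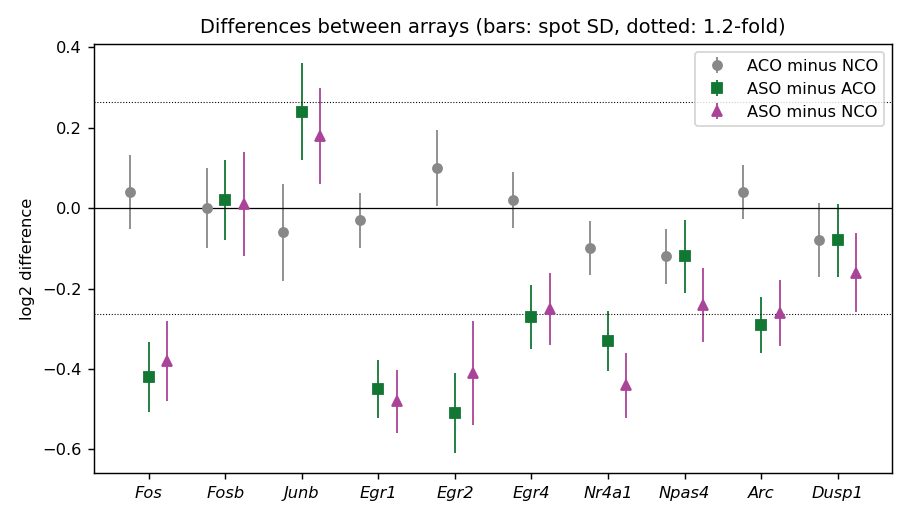
Log2 difference of each of the 10 genes for ACO minus NCO (circles), ASO minus ACO (squares) and ASO minus NCO (triangles); bars are 1 spot SD and dotted lines mark 1.2-fold. The ACO minus NCO points lie between -0.12 and 0.10, and Egr2, Egr1 and Fos reach the lowest values against ACO at -0.51, -0.45 and -0.42.

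The median of the 10 genes was -0.02 for ACO minus NCO, -0.28 for ASO minus ACO and -0.25 for ASO minus NCO, where the medians over all genes were 0.0049, -0.014 and -0.014. Their range was -0.12 to 0.10, -0.51 to 0.24 and -0.48 to 0.18 in the same order. Of all genes, the middle 90% lay between -0.32 and 0.37 for ASO minus ACO, so Fos, Egr1, Egr2 and Nr4a1 lay below it, while Egr4, Arc, Npas4, Dusp1, Fosb and Junb lay inside it. Scaling each array to its median in place of its 75th percentile moved the median of all genes to -0.11 for ASO minus ACO. The higher genes then made up 19.2% of those at least 1.2-fold apart, in place of 52.2%, and 26.3% in place of 55.5% for ASO minus NCO. For ACO minus NCO that share was 61.1% in place of 50.3%. Relative to all genes the 10 stayed at -0.28 for ASO minus ACO under that scaling, against -0.27. Over all settings this relative value ran from -0.28 to -0.19.

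**Figure D4:**
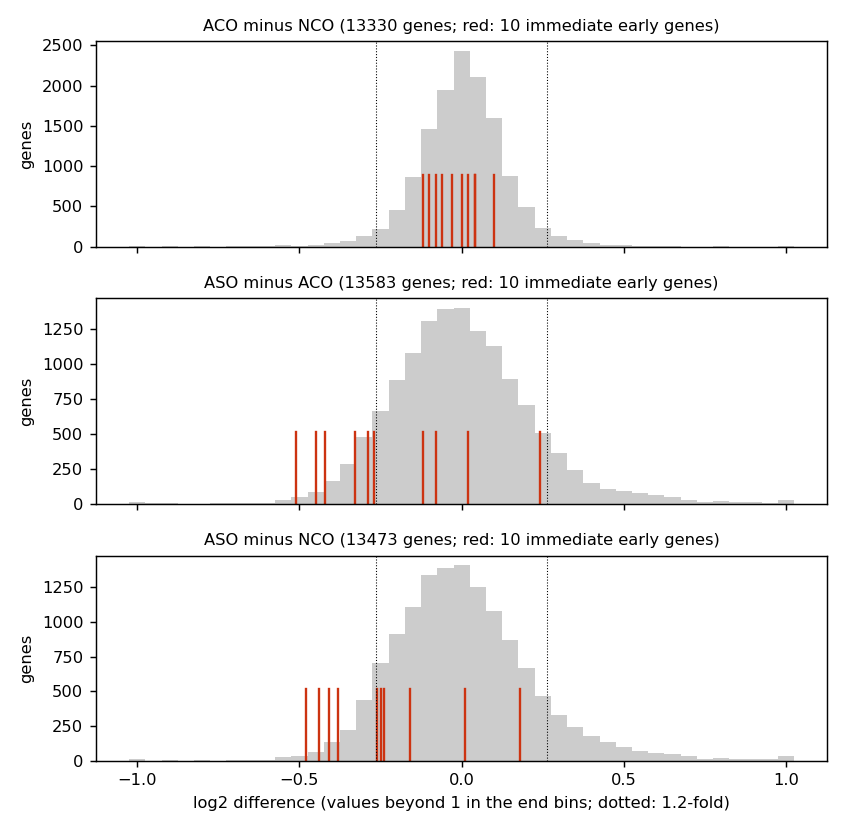
Histograms of the log2 difference over all measured genes in the 3 comparisons (13330, 13583 and 13473 genes), with the 10 immediate early genes as red lines and 1.2-fold dotted. The red lines cluster near 0 for ACO minus NCO, and 8 of 10 lie below 0 in each of the comparisons with ASO.

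Other genes of the same response were described from lists chosen with earlier results of these data known. Of 24 further early transcription factor genes, 18 were measured on ASO and ACO, with 2 at least 1.2-fold lower, 0 higher and a median of -0.02. Of all genes, 9.26% were lower and 10.1% higher by that size. Klf10, a TGF-β-inducible zinc finger factor, stood at -0.32 and Klf4 at -0.30. Against NCO these stood at -0.27 and -0.32. Jun, the main AP-1 partner of Fos, went the other way, with signals of 3907, 4183 and 4714 on NCO, ACO and ASO, which gave 0.27 for ASO minus NCO. Nab1 and Nab2, which bind and repress Egr proteins, stood at -0.07 and -0.01 for ASO minus ACO. Nr4a2, the sister gene of Nr4a1, had probes that disagreed, named here after their values were seen: the brighter was at 0.00 and the other at -0.37 for ASO minus ACO. Egr3, Nr4a3, Ier2, Fosl1 and Maff were not well above background on any array. Atf3, a stress-induced partner of AP-1 proteins, was well above background on ASO alone, with signals of 38.4, 39.4 and 63.4 on NCO, ACO and ASO. With 50 added to each signal, its ASO reading was 1.27-fold that on ACO and 1.28-fold that on NCO. Its ACO and NCO readings did not pass the background limit, so the size of this gap is not settled.

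Of 30 activity-regulated effector genes, 27 were measured on ASO and ACO, with 5 at least 1.2-fold lower and 2 higher, and a median of -0.06. Beside these stand 9.26% lower and 10.1% higher of all genes. The lowest were Ptgs2, the inducible cyclooxygenase, at -0.50 and Penk, the enkephalin precursor, at -0.48. Bdnf, the growth factor for synapses that neurons release after firing, had signals of 847, 887 and 655 on NCO, ACO and ASO and stood at -0.35 against NCO. Plk2, a kinase that weakens synapses after high activity, had the lowest difference from NCO, at -0.40, and its surroundings stood at -0.17 in that comparison. The neuropeptide precursor gene Vgf was higher, with signals of 8634, 8515 and 12224, at 0.52 against ACO and 0.50 against NCO. Rgs2, a regulator of G protein signalling, was at 0.27 against ACO by its brighter probe and at -0.15 by the other. Homer1, a synaptic scaffold gene, had 4 probes measured on ASO and ACO, and these lay between 0.00 and 0.14. For ACO minus NCO, 1 of 26 effectors was at least 1.2-fold apart, the stress peptide gene Crh at -0.27, beside 5.48% of all genes.

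The other MAP kinase phosphatase genes showed no gap of 1.2-fold, with 7 of 10 measured, a median of -0.04 and a range of -0.17 to 0.15 for ASO minus ACO. Of all genes, 19.4% were that far apart between these arrays. Of 35 genes of upstream signalling and transcription factors, 33 were measured on ASO and ACO, with a median of 0.10. At least 1.2-fold higher were 5 and lower 3, beside 10.1% and 9.26% of all genes. Crebbp, the coactivator that CREB recruits, was at 0.52, while Map2k1, a MAP kinase kinase, was at -0.34 and Rps6ka2, a ribosomal S6 kinase, at -0.37. Elk1, an SRF partner, was at 0.73 for ASO minus ACO and -0.56 for ACO minus NCO, but 48% of its pixels were saturated on ASO. Arnt2, the DNA-binding partner of Npas4, had signals of 1091, 1009 and 799 and stood at -0.43 for ASO minus NCO. By the same rule, Mef2d stood at -0.29 for ACO minus NCO by its brighter probe (-0.02 by the other) and, for ASO minus NCO, Rps6ka2 at -0.40 and Crebbp at 0.47.

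**Figure D5:**
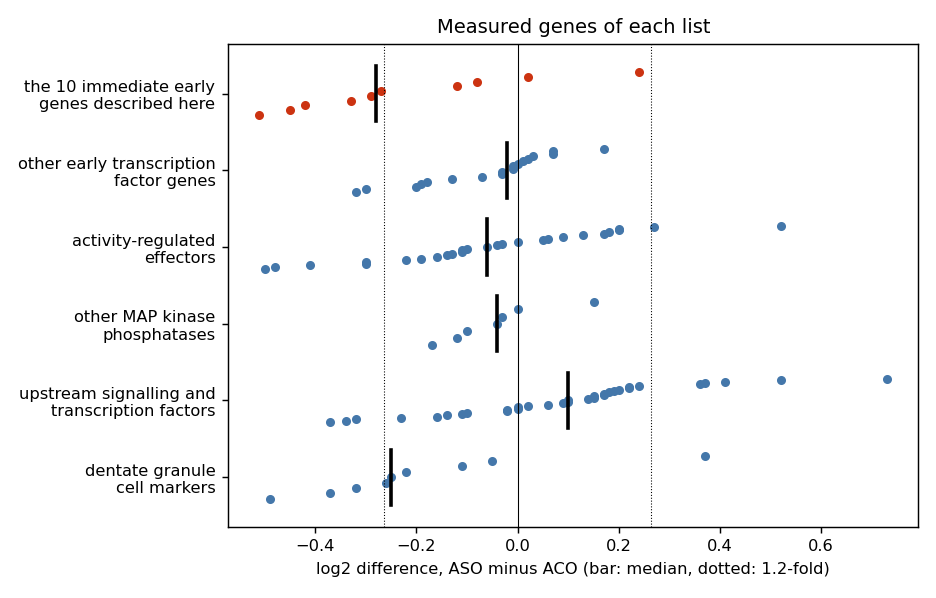
Log2 difference of ASO minus ACO for each measured gene (points) of the 10 immediate early genes (red), 4 related lists and the dentate granule cell markers (blue), with the list's median as a black bar and 1.2-fold dotted. The medians are -0.28, -0.02, -0.06, -0.04, 0.10 and -0.25 from top to bottom.

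In whole tissue, fewer cells of a type and less RNA per cell cannot be told apart. Dentate granule cell markers also read lower on ASO than on ACO: 8 of 9 measured genes were below 0, 3 were at least 1.2-fold lower and 1 higher, and the median was -0.25. Of all genes, 53.0% were below 0, 9.26% at least 1.2-fold lower and 10.1% higher. For ASO minus NCO the marker median was -0.09, where that of the 10 genes was -0.25. In that comparison 7 of 9 markers were below 0 and 2 above. The markers at least 1.2-fold lower there were C1ql2 at -0.40 and Calb1 at -0.39 (-0.07 by its other probe), and 0 were higher, beside 8.31% and 10.3% of all genes. For ASO minus ACO, Calb1, the calcium buffer of these cells, stood at -0.49 by its brighter probe and -0.08 by the other, and Trpc6 at -0.37. Pdzd2 stood at 0.37, with signals of 114 on ACO and 163 on ASO and surroundings at 0.15. The summed signal of these markers was 6714 (NCO), 7316 (ACO) and 6119 (ASO). That of the 10 immediate early genes was 29756, 29231 and 23497. Sums of signals are weighted to the brightest probes, here Arc, Nr4a1 and Egr1 among the 10, and do not describe each gene. The part of dentate tissue in the early gene values was not tested. For ASO minus ACO, excitatory neuron markers had a median of 0.10, with 3 of 5 above 0. The others were Neurod6 at -0.13 and Camk2a at -0.10 (0.12 by its other probe). The summed signal of the 5 was 18878, 19855 and 21442 on NCO, ACO and ASO, where Snap25 alone read 4811, 5911 and 7216. CA1 markers had a median of 0.09 (3 of 5 above 0), CA3 markers 0.11 (3 of 4) and interneuron markers 0.00 (4 of 7). Among non-neuronal cells, the medians were 0.18 for astrocytes (6 of 6 above 0) and 0.27 for microglia (6 of 7, with P2ry12 at -0.40). Oligodendrocytes had 0.15 (5 of 6), endothelium 0.22 (3 of 4 measured) and blood cells 0.18 (4 of 5, from -0.68 to 0.93). Choroid plexus had -0.21, with 1 of 7 above 0. Choroid plexus markers also differed between the control arrays, with a median of 0.51 for ACO minus NCO. Of these, 6 of 7 were at least 1.2-fold higher, beside 2.76% of all genes, while Ttr, the brightest by signal, was lower at -0.46. Their summed signal was 23734 (NCO), 19788 (ACO) and 20003 (ASO). The part of choroid plexus in the early gene values was not tested. Striatal and cortical markers stood at 0.04 and 0.01. The 5 spike-in (E1A) probes, which read RNA added in the laboratory, had differences of 0.41 to 0.82 for ASO minus ACO, with a median of 0.48. Their median was -0.14 for ACO minus NCO and 0.34 for ASO minus NCO. The part of labelling in the early gene values was not tested.

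The pair of medians of the 10 genes, for ACO minus NCO and ASO minus ACO, lay close to the values of many other genes. The pair is not the pattern of each member. Egr4 at 0.02 and -0.27 and Arc at 0.04 and -0.29 lay near it. Egr2 at 0.10 and -0.51 and Junb at -0.06 and 0.24 lay farther off. Slc35f1, Pdf, Mrap2, Gins4 and Hmgn5 lay closest, at distances of 0.0046 to 0.0074 in log2 units over the 3 arrays. Within a distance of 0.1 lay 991 of 13199 genes, or 7.51%.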

How the data were processed

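Hippocampal RNA of 3 groups was measured on 1-colour (Cy3) arrays, 200 ng of pooled RNA each, at positions 1, 2 and 4 of a slide of 4, per the labels and the file headers. The authors deposited unnormalized intensity values, namely medians and means of each spot and medians of its local background. These come from a GenePix 4000B scan at 532 nm read by GenePix Pro 6.1.0.4, per the file headers. That program also wrote the deposited percent of pixels at saturation and the deposited score of signal to noise and spot mark. The submitters' processing notes also list Agilent Feature Extraction. The authors' deposited value table lists intensities of 475 probes and 0 of the 10 probes studied here, so it gave no values.

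For background, normexp (saddle, offset 0) of limma 3.58.1 in R 4.3.3 was fitted to all spots of an array. Gene spots were scaled to a common 75th percentile (factors 1.06 on NCO, 0.949 on ACO and 0.991 on ASO), 50 was added, log2 was taken, and spots of 1 probe were averaged. Adding 50 draws the log2 differences of dim probes such as Junb and Egr2 towards 0. A probe was measured where its median signal to noise was at least 2.6 on both arrays, it was not saturated (50% of pixels) on both, and no spot of it was marked bad, as were 2 spots of the NCO array. A gene was represented by its brightest measured probe under the files' gene name; 1.2-fold is 0.26 in log2. Surroundings are the median over gene spots within 5 rows and columns. The scripts, in Python 3.11.15 with numpy 2.4.6 and pandas 2.3.3, were tested on simulated data.

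With 1 array a group no test was run. The members, lists and the 1.2-fold limit were chosen with earlier results of these data known. Named beside the 10 genes were, by rule, the 2 highest and 2 lowest genes of each of 4 related lists where at least 1.2-fold apart, and the 5 genes nearest in pattern, of which 1 list gene is not reported here; Nab1, Nab2, Homer1, Nr4a2 and some list members were added after their values were seen. The rule covered the marker lists too, which are described here mainly by their medians. The 12 alternatives changed background, spot statistic, scaling, added constant, filter, probe rule and surface correction. Promoter and protein sequences were not analysed here, and no coordinates are given because the files name no genome build.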

Additional observations from a re-analysis of the deposited data

How the results depend on the processing

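No direction of a gene at least 1.2-fold apart was reversed under the 12 alternatives, and 0 of 10 genes were at least 1.2-fold apart between ACO and NCO in each. For ASO minus ACO, Fos, Egr1, Egr2 and Arc were at least 1.2-fold lower under all 12, Nr4a1 under 10 and Egr4 under 7, and Junb was at least 1.2-fold higher under 2 (0.29 with plain subtraction, 0.34 with a constant of 16). Dropping the filter on dim probes, the stricter filter and averaging over probes could not move the lower genes, each with 1 probe well above background. Those settings are in the counts of 12, 10 and 7 by construction. Scaling to the median gave a median of -0.40 in place of -0.28 for ASO minus ACO. Spot means gave -0.20 and correction by the surrounding spots -0.23, and under each of these 4 genes were at least 1.2-fold lower in place of 6. For ASO minus NCO, scaling to the median gave 7 genes at least 1.2-fold apart in place of 4, spot means gave 3 and adding 200 gave 2. Adding 200 also gave 323, 1593 and 1533 of all genes at least 1.2-fold apart in place of 731, 2634 and 2513 for ACO minus NCO, ASO minus ACO and ASO minus NCO, as a larger constant draws differences towards 0. With no filter on dim probes the first of these counts was 1678, over 23752 genes. Scaling to the median also gave 2998 lower and 711 higher of all genes in place of 1258 and 1376 for ASO minus ACO, and 2451 and 875 in place of 1119 and 1394 for ASO minus NCO. The stricter filter, at a signal to noise of 5, left Junb out. No paired analysis was possible because each group has 1 array. Dim signal limits Junb most, and the spot error says nothing of the spread between mice.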
